A study of Apis mellifera with 24 samples.

Results

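The transcripts described here were lower in the ovaries of caged honey bee queens than in the ovaries of queens that laid eggs. Of the 21596 transcripts in the table, 64 were chosen by their FPKM values (fragments counted per unit of transcript length and of sequencing depth) in 9 mated queens. Each of the 64 had a mean of at least 2 FPKM over those queens. Every value of the egg-laying and recovery queens lay above every value of the inhibited queens, and both laying means were at least 1.5 times the inhibited mean. These values chose the transcripts, so the fall with caging and the return after release are given as a description, with no test. The virgin queens took no part in the choice. Another 2 transcripts met the numeric conditions and were left out by name.

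Ovaries of 12 Apis mellifera queens were sequenced, with 1 mRNA library per queen and 3 queens in each of 4 groups. Virgin queens had not been inseminated. Egg-laying queens had been instrumentally inseminated and laid normally. Egg-laying inhibited queens had been laying and were then caged for 7 days in their own hives. Egg-laying recovery queens were caged for 7 days in the same way, were released, and were sampled on the day after the caging, when they were laying eggs again. According to the study's methods, the queens were A. m. ligustica sisters from a single source colony, each kept in a nucleus colony of its own, and the semen had a common source. The 3 mated groups therefore share the insemination, the inhibited and recovery groups share the caging, and these last groups may also have been older than the egg-laying queens. An ovary is a mixture of germ cells, nurse cells, follicle cells and sheath, so less RNA per cell and fewer cells of a type cannot be told apart in these values.

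The queen's ovary is made of many ovarioles, tubes in which oocytes grow while nurse cells supply them with RNA and protein and follicle cells lay down the eggshell. In a laying queen, ripe eggs leave the ovarioles continuously. A caged queen has no empty comb cells in which to lay, and her egg-laying stops until she is released.

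The most abundant of the 64 transcripts was XM_392667.5 of the gene LOC409141, on linkage group 5. Of the 64, it is the one for which the study lists primers for real-time PCR. That PCR used the samples that were sequenced. The study reports that the profiles of the RNAs it measured in this way were like those from sequencing. The primers are shown because they mark the stretch of the transcript that the PCR amplified, a product of 121 bp.
Forward primer of XM_392667.5: tgcctcaatttgtacaatgggt
Reverse primer of XM_392667.5: acacattcctacaccaccca

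Most of the 64 transcripts have no known role in the sources used here. A gene was paired with 47 of them, which belong to 46 different genes, and 17 were left with the transcript ID alone. Genes are named by their RefSeq symbols, and LOC followed by the gene ID stands for a gene without a symbol of its own. The gene CPR12 alone had another symbol. CPR12 is a cuticular protein of the family with the RR consensus, whose members bind chitin in the insect cuticle. The study's annotation names LOC412348 as subunit 19 of Mediator, the complex that links transcription factors to RNA polymerase II. No role is given here for the other genes.

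CPR12 (NM_001270824.1) had 2.74, 3.15 and 3.75 FPKM in the 3 virgin queens, 3.06, 3.18 and 3.13 in the egg-laying queens, 2.39, 1.76 and 1.91 in the inhibited queens, and 6.65, 7.07 and 5.24 in the recovery queens. The recovery queens were the highest, and each of them was above every other queen. The recovery mean of 6.32 ± 0.96 (SD, n = 3) was 2.02 times the egg-laying mean of 3.12 ± 0.06. In the test across all transcripts described further on, that difference was 0.82 on the log2(FPKM + 1) scale (SE 0.17, limma adjusted p = 0.137) and did not pass the threshold of 0.05.

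LOC412348, the Mediator subunit, had 21.6, 23.1 and 13.2 FPKM in virgin queens and 22.9, 19.1 and 34.0 in egg-laying queens. It had 13.6, 17.2 and 16.3 FPKM in inhibited queens and 28.2, 25.3 and 31.2 in recovery queens. The lowest laying queen was only slightly above the highest inhibited queen, and the virgin queens spread from below the lowest inhibited queen into the range of the laying queens.

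**Figure D1:**
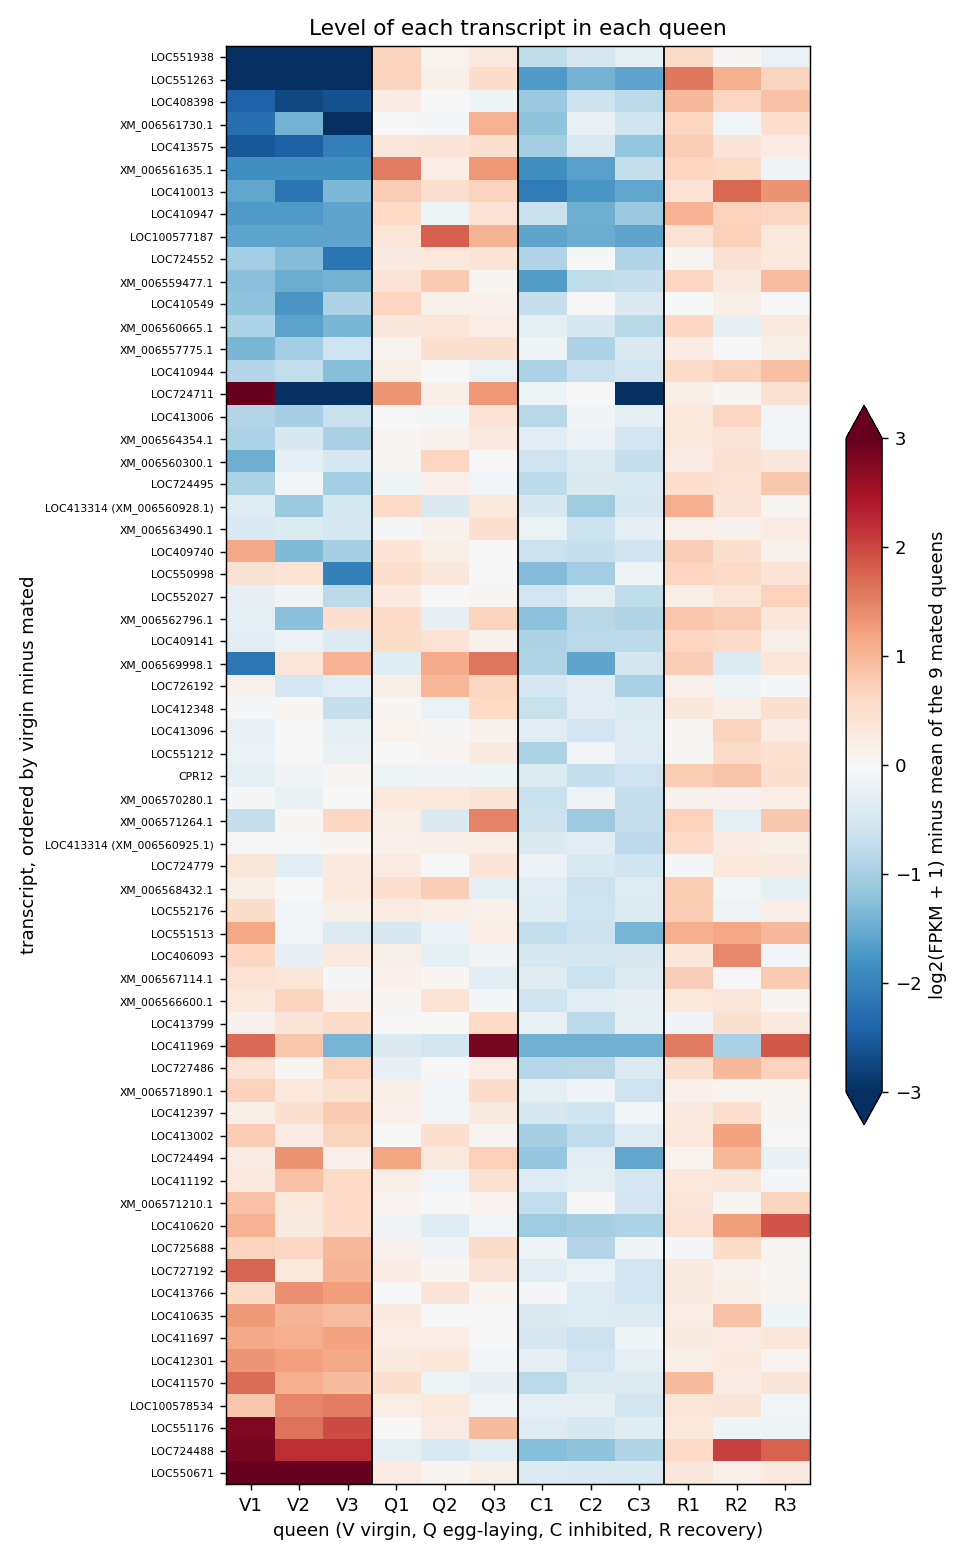
Level of each of the 64 transcripts (rows) in each of the 12 queens (columns, V virgin, Q egg-laying, C inhibited, R recovery), as log2(FPKM + 1) minus the mean of the 9 mated queens. Rows are ordered by the virgin minus mated difference. The inhibited columns are blue by the way the transcripts were chosen, while the virgin columns run from dark blue at the top to dark red at the bottom.

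The transcripts were of low to moderate abundance. Their mean over the mated queens ran from 2.26 to 56.7 FPKM with a median of 5.5, against a median of 15.9 for all 11236 transcripts with a mated mean of at least 2. A mean of 10 FPKM or more was reached by 20, and 30 were under 5. Summed over the 64, the level was 700 ± 49.8 FPKM in egg-laying queens, 344 ± 18.3 in inhibited queens, 828 ± 20.4 in recovery queens and 768 ± 179 in virgin queens (mean ± SD, n = 3). The ratio of the mean of the 2 laying groups to the inhibited mean had a median of 2.00 and a lowest value of 1.53. It was above 2 for 32 transcripts, above 3 for 16 and above 5 for 7. The median ratio to the inhibited mean was 1.87 for egg-laying and 2.06 for recovery queens.

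The fold limit decided which transcripts were included. A total of 472 transcripts had a mated mean of at least 2 with every laying queen above every inhibited queen, and 408 of them were under the limit of 1.5. Just inside it were XM_006566600.1, with means of 20.3, 13.5 and 21.7 FPKM in egg-laying, inhibited and recovery queens, and LOC724779, with 54.2, 34.9 and 52.6 FPKM. Just outside were XM_006559643.1, with 3.71, 2.5 and 3.71 FPKM, and XM_393283.5, with 16.7, 11.1 and 22.0 FPKM. The opposite pattern, with inhibited queens above all laying queens by the same limits, was found for 81 transcripts.

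The rule required each inhibited queen to be below every laying queen, so the levels per queen are given as a description. Over the 64 transcripts, the median deviation from the mean of the mated queens, on the log2(FPKM + 1) scale, was 0.20, 0.12 and 0.25 in the egg-laying queens. It was -0.64, -0.57 and -0.57 in the inhibited queens and 0.37, 0.38 and 0.28 in the recovery queens. In the virgin queens it was 0.08, -0.08 and -0.13. Inhibited queens 1, 2 and 3 were the lowest of their group for 27, 19 and 18 transcripts. The highest of the laying queens was egg-laying queen 1, 2 or 3 for 5, 7 and 14 transcripts and recovery queen 1, 2 or 3 for 15, 15 and 8.

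The fragment counts behind the FPKM values are unknown, so it is also unknown how many fragments the fold differences of the rarer transcripts rest on. In a fit across the 17924 transcripts with a mean of at least 0.1 FPKM, 16 of the 64 were past adjusted p 0.05 in laying minus inhibited queens, where 0.268% of all transcripts were. For inhibited minus egg-laying queens the count was 6 (0.139% of all), and for recovery minus inhibited queens it was 16 (0.658% of all). The rule used these differences, so nothing is read from the counts. They also share the inhibited queens.

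The 10 most abundant transcripts show how the level moved across the 4 groups. LOC409141 had 76.5, 70.9 and 57.4 FPKM in egg-laying queens, 26.8, 29.1 and 30.0 in inhibited queens, and 81.8, 78.6 and 59.0 in recovery queens. The virgin queens, at 41.1, 45.9 and 39.0 FPKM, lay in the gap between the inhibited and the laying queens. Virgin queens were lower than mated queens by limma on the log2(FPKM + 1) scale (-0.31, SE 0.11, adjusted p = 0.0291). The call was lost without virgin queen 1 (-0.29) or virgin queen 3 (-0.26) and with scaling by the median of ratios (-0.25, adjusted p = 0.0701), and the direction turned when libraries were scaled to the same sum (0.17) or quantile normalized (0.15).

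LOC724779 was next in abundance, with 55.2, 46.8 and 60.5 FPKM in egg-laying queens and 40.8, 33.5 and 30.2 in inhibited queens. Recovery queens had 44.9, 57.4 and 55.6 FPKM, and virgin queens had 59.9, 36.9 and 56.7. The virgin queens overlapped both laying groups and the inhibited group.

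LOC413575 had the largest fall in virgin queens among the 10. It was at 4.15, 4.41 and 6.23 FPKM in virgin queens and at 37.0, 38.8 and 40.9 in egg-laying queens. Inhibited queens had 13.7, 20.8 and 12.3 FPKM and recovery queens 48.9, 37.8 and 34.4. Caged queens thus stood between virgin and laying queens, and every virgin queen was below every mated queen. The virgin minus mated difference was -2.35 (SE 0.16, limma adjusted p = 1.59e-07).

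LOC410620 and LOC724488 were highest in released or virgin queens rather than in egg-laying queens. LOC410620 had 19.5, 16 and 19.8 FPKM in egg-laying queens, 9.55, 9.97 and 10.5 in inhibited queens, and 28.8, 51.4 and 80.7 in recovery queens. Its virgin queens, at 44.2, 25.4 and 31.6 FPKM, were above all egg-laying queens. The virgin minus mated difference was 0.62 (SE 0.24, limma adjusted p = 0.0422), and the call did not hold when any of virgin queens 1 and 3, the 3 egg-laying queens, the 3 inhibited queens or recovery queen 2 was left out (0.41 to 0.80 over all such fits), or with no filter (adjusted p = 0.0673).

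LOC724488 had 10.2, 8.90 and 9.78 FPKM in egg-laying queens and 4.63, 4.89 and 6.30 in inhibited queens. It reached 19.6, 55.1 and 45.3 FPKM in recovery queens and 96.1, 61.5 and 61.8 in virgin queens. Every virgin queen was above every mated queen, and every recovery queen was above every egg-laying queen. Virgin queens were higher than mated queens by 2.42 (SE 0.25, limma adjusted p = 5.61e-06).

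**Figure D2:**
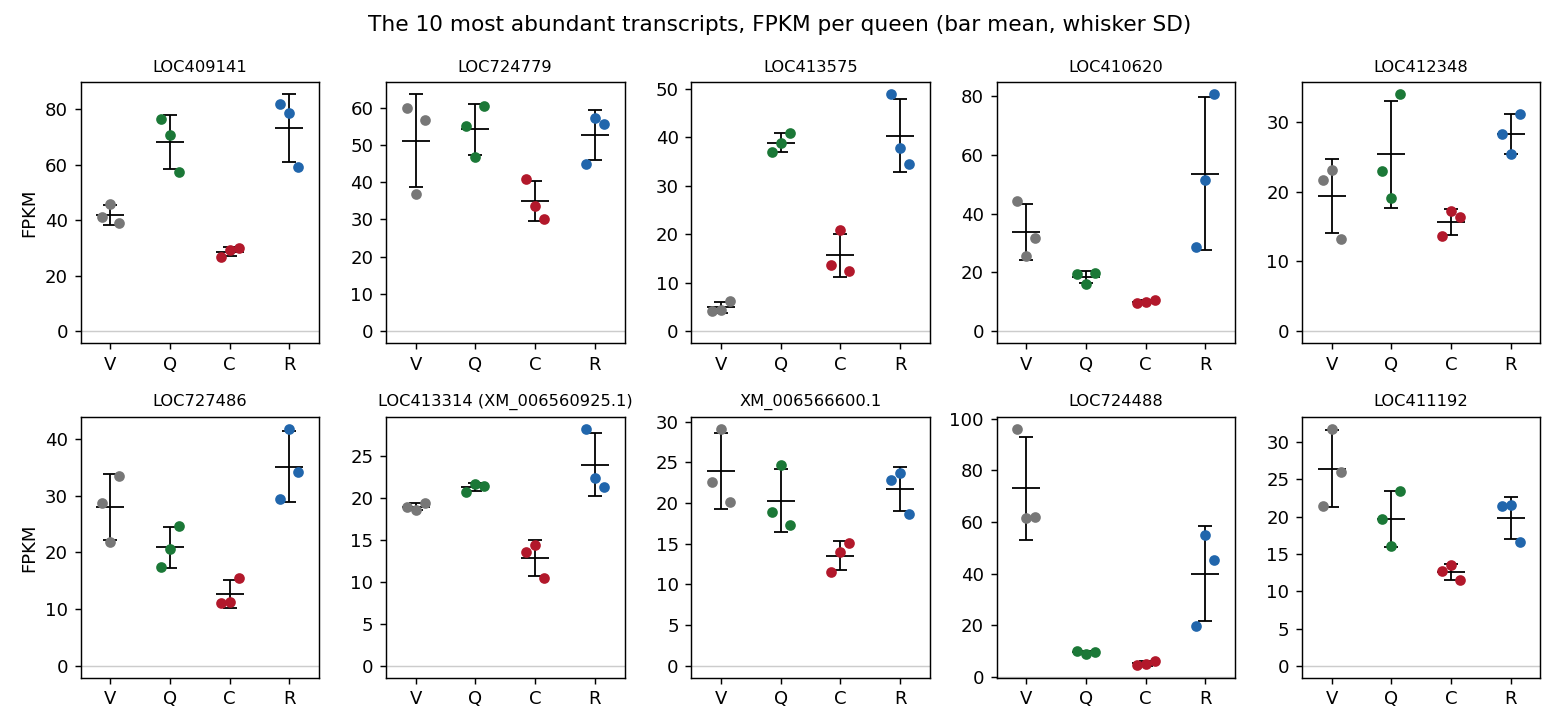
FPKM of the 10 transcripts with the highest mean over the mated queens, 1 panel each, by group (V virgin, Q egg-laying, C inhibited, R recovery). Points are queens, the wide bar is the mean and the whiskers are the SD (n = 3). LOC409141 falls from 68.2 to 28.6 FPKM between the egg-laying and inhibited means and stands at 73.1 in recovery queens, while LOC724488 is highest in virgin queens.

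LOC727486 had 17.4, 20.6 and 24.7 FPKM in egg-laying queens, 11.1, 11.3 and 15.6 in inhibited queens, and 29.4, 41.8 and 34.3 in recovery queens. Virgin queens, at 28.7, 21.9 and 33.6 FPKM, overlapped both laying groups. Its virgin minus mated call (0.39, SE 0.16, limma adjusted p = 0.048) was lost when any of virgin queens 1 and 3, egg-laying queens 1 and 2, inhibited queens 1 and 2 or recovery queens 1 and 3 was left out (0.25 to 0.55 over all such fits), with no filter (adjusted p = 0.0687) and with a pseudocount of 0.01 (adjusted p = 0.0533). The gene sum went the other way and passed (-0.48, adjusted p = 0.00126), with 46.0 FPKM in virgin queens against 61.3, 49.0 and 88.7 in egg-laying, inhibited and recovery queens.

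XM_006566600.1 had 18.9, 24.7 and 17.3 FPKM in egg-laying queens, 11.6, 13.9 and 15.1 in inhibited queens, and 22.8, 23.7 and 18.7 in recovery queens. Virgin queens had 22.6, 29.1 and 20.2 FPKM, above every inhibited queen. Its virgin minus mated difference (0.38, SE 0.14, limma adjusted p = 0.0305) lost its call without virgin queen 1 (0.41) or virgin queen 2 (0.23) and with array weights (0.25, adjusted p = 0.137). LOC411192 had 19.6, 16 and 23.4 FPKM in egg-laying queens, 12.7, 13.6 and 11.5 in inhibited queens, 21.4, 21.6 and 16.6 in recovery queens and 21.5, 31.7 and 26.0 in virgin queens. It was higher in virgin than in mated queens (0.60, SE 0.14, limma adjusted p = 0.00236), and for the gene sum the difference was 0.23 (adjusted p = 0.0234).

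LOC413314 was the gene with a pair of transcripts among the 64. Its XM_006560925.1 had 20.7, 21.6 and 21.5 FPKM in egg-laying queens and 13.6, 14.4 and 10.4 in inhibited queens. Recovery queens had 28.3, 22.4 and 21.3 FPKM, and virgin queens 18.9, 18.6 and 19.4, a narrow range between the inhibited and the laying queens. Its XM_006560928.1 had 20.2, 9.30 and 16.4 FPKM in egg-laying queens, 8.96, 5.66 and 8.98 in inhibited queens and 28.6, 17.4 and 13.8 in recovery queens. In virgin queens this second transcript was at 9.61, 5.43 and 8.68 FPKM, spanning much the same range as the inhibited queens. The second transcript was lower in virgin than in mated queens (-0.68, SE 0.26, limma adjusted p = 0.0393), a call lost without virgin queens 2 or 3, egg-laying queens 1 or 3, inhibited queens 1 or 3, or recovery queen 1 (-0.82 to -0.46 over all such fits), with no filter, with array weights, with quantile normalization or scaling to the same sum, and for the gene sum (-0.24, adjusted p = 0.13). The first had a difference of 0.03 (SE 0.10, adjusted p = 0.844).

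The transcripts with the largest ratio of laying to inhibited means were mostly rare, and several were close to 0 in caged queens. LOC551263 was the most abundant of those with a ratio above 5. It had 18.8, 13.1 and 17.2 FPKM in egg-laying queens, 2.87, 3.65 and 3.15 in inhibited queens, and 36.3, 25.2 and 18.8 in recovery queens. In virgin queens it was listed at 0, 0.164 and 0.17 FPKM. Virgin minus mated was -3.49 (SE 0.18, limma adjusted p = 1.99e-08) for this transcript. The other listed transcript of the gene had a mean of 3.72 FPKM in virgin queens, so the gene sum was 3.83 in virgin and 3.22 in inhibited queens, and virgin minus mated of the sum was -1.39 (adjusted p = 3.9e-05).

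LOC410013 had 7.26, 6.01 and 6.99 FPKM in egg-laying queens and 5.69, 15.6 and 11.6 in recovery queens. It was at 0.155, 0.495 and 0.68 FPKM in inhibited queens and at 0.69, 0.0839 and 0.951 in virgin queens. Inhibited and virgin queens overlapped near the bottom of the scale. LOC410947 had 5.07, 2.60 and 4.41 FPKM in egg-laying queens, 1.54, 0.446 and 0.869 in inhibited queens, 7.29, 5.55 and 5.28 in recovery queens and 0.242, 0.231 and 0.335 in virgin queens. Both were lower in virgin than in mated queens by limma, LOC410013 by -1.70 (SE 0.26, adjusted p = 0.000145) and LOC410947 by -1.67 (SE 0.20, adjusted p = 2.1e-05).

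For LOC100577187, XM_006561635.1 and LOC411969 the inhibited values were at or near 0, and no fold is given. LOC100577187 (XM_003251948.1) had 2.87, 9.35 and 5.09 FPKM in egg-laying queens and 3.03, 3.92 and 2.74 in recovery queens. It was listed at 0, 0.0732 and 0 in inhibited queens and at 0 in all 3 virgin queens. XM_006561635.1 had 9.36, 3.21 and 7.74 FPKM in egg-laying queens, 4.58, 4.44 and 2.30 in recovery queens, 0, 0.148 and 1.19 in inhibited queens, and was listed at 0 in all 3 virgin queens. These were the only 2 of the 64 that were listed at 0 in every virgin library. Virgin minus mated was -1.58 (SE 0.23, limma adjusted p = 9.3e-05) for the first and -1.84 (SE 0.30, adjusted p = 0.000227) for the second.

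LOC411969 (XM_006564123.1) was uneven in every group except the caged queens. It had 1.01, 0.869 and 18.5 FPKM in egg-laying queens, 7.09, 0.394 and 8.95 in recovery queens and 7.82, 3.87 and 0.0415 in virgin queens, against 0, 0 and 0.011 in inhibited queens. The lowest recovery queen was under 1 FPKM, so the separation from the inhibited queens rests on small values in some laying queens. Virgin minus mated was 0.38 (SE 0.83, limma adjusted p = 0.707) for the transcript and -1.11 (adjusted p = 1.03e-05) for the gene sum.

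**Figure D3:**
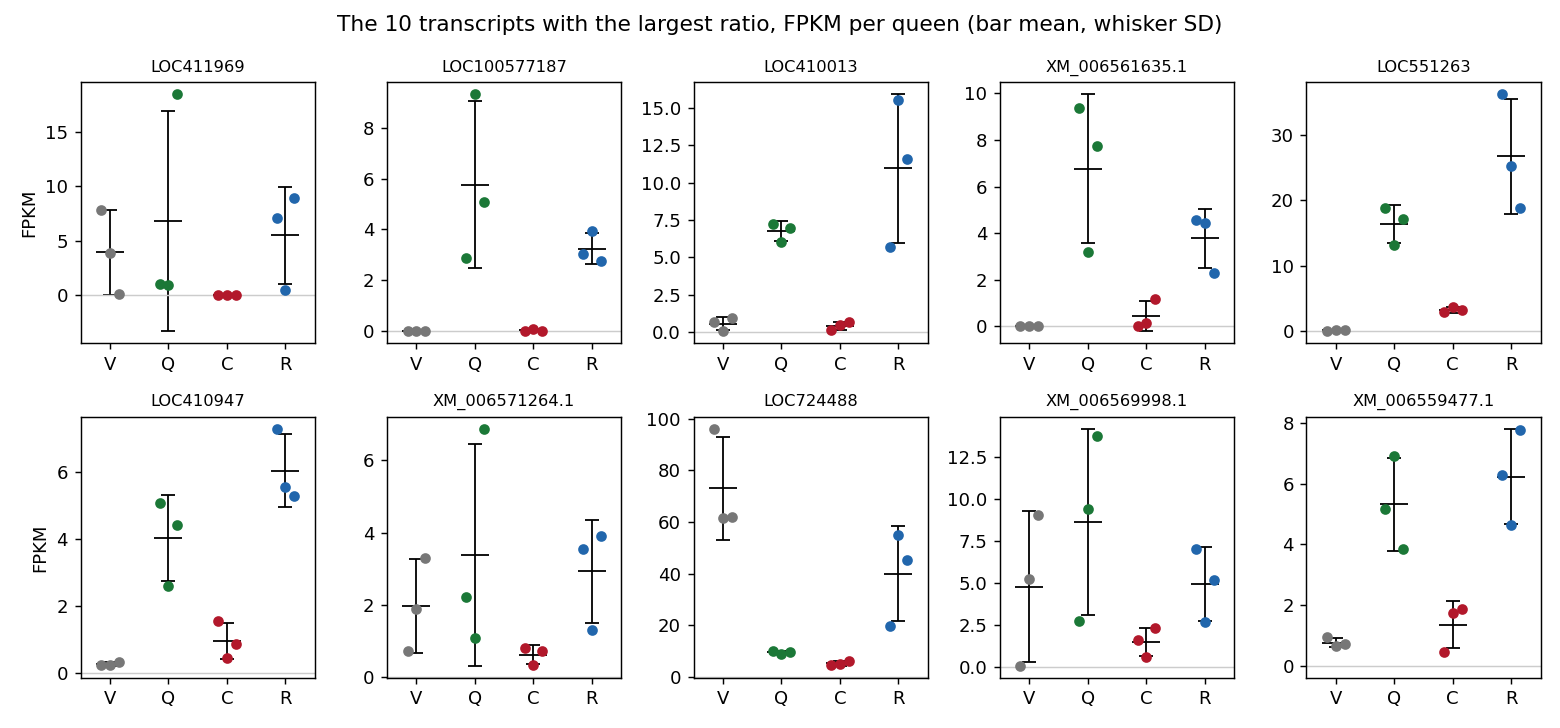
FPKM of the 10 transcripts with the largest ratio of laying to inhibited means, 1 panel each, by group (V virgin, Q egg-laying, C inhibited, R recovery). Points are queens, the wide bar is the mean and the whiskers are the SD (n = 3). Virgin queens sit at or under the inhibited mean for LOC100577187, XM_006561635.1, LOC551263, LOC410947 and XM_006559477.1, but far above it for LOC724488.

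Among the remaining transcripts with a large ratio, XM_006559477.1 had 5.15, 6.92 and 3.86 FPKM in egg-laying, 0.453, 1.74 and 1.87 in inhibited, 6.27, 4.64 and 7.78 in recovery and 0.934, 0.645 and 0.72 in virgin queens. Virgin queens fell within the inhibited range, and virgin minus mated was -1.39 (SE 0.23, limma adjusted p = 0.000263). XM_006571264.1 and XM_006569998.1 varied widely among queens of a group. XM_006571264.1 ran from 1.07 to 6.87 FPKM in egg-laying, from 0.313 to 0.809 in inhibited, from 1.29 to 3.92 in recovery and from 0.709 to 3.30 in virgin queens. XM_006569998.1 ran from 2.78 to 13.8, from 0.622 to 2.31, from 2.67 to 7.05 and from 0.0797 to 9.05 FPKM in the same order of groups. Neither differed past the threshold between virgin and mated queens (limma adjusted p = 0.96 and 0.737).

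The virgin values can be placed beside the means of the mated groups. The rule required the inhibited mean to be the lowest of the 3, so this placement is a description with no test. The virgin mean was at or under the inhibited mean for 19 of the 64 transcripts and between the inhibited mean and the lower laying mean for 18. It lay between the 2 laying means for 9 and above both laying means for 18. The median ratio of the virgin to the inhibited mean was 1.73.

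The difference between the virgin mean and the average of the 3 mated means was tested with limma for all 17924 transcripts. With equal groups, the estimate of this contrast is uncorrelated with that of laying minus inhibited queens, although the rule sets a floor under the mated mean. The rule also asks for mated groups that do not overlap, which may favour a small spread within them. That spread enters the SE, so the p-values may not be independent of the choice. Of the 64 transcripts, 40 passed (62.5%), where 61% of all transcripts did, so the share of calls was close to the background. Virgin queens were higher for 18, where 30.9% of all transcripts were higher, and lower for 22, where 30.1% were lower. Among all transcripts with a mated mean of at least 2, which fits the 64 better, 69.7% passed, with 24.6% higher and 45.1% lower in virgin queens. The median difference was -0.11 for the 64 on the log2(FPKM + 1) scale, 0.04 for all transcripts and -0.22 for those with a mated mean of at least 2. When all mated libraries formed 1 group, whose spread then includes the differences between laying and caged queens, the calls of LOC409141, LOC410620, LOC727486, LOC410013, XM_006566600.1 and XM_006560928.1 were lost.

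The scale between virgin and mated libraries is not settled by these values. The FPKM values of a virgin library summed to 355905 to 405177 and those of a mated library to 521059 to 559542. Scaling all libraries to the same sum moved the median virgin minus mated difference of all transcripts from 0.04 to 0.34. With that scaling 26 of the 64 were higher and 17 lower in virgin queens, and 8788 of all transcripts were higher and 3299 lower, against 5540 and 5393 before.

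By the ranges of the queens, all 3 virgin values were above all 9 mated values for 10 transcripts, where 18.6% of all transcripts with a mated mean of at least 2 were. All virgin values were below all mated values for 9, where 36.5% of all were. The ranges overlapped for the remaining 45. The median coefficient of variation among virgin queens was 27.5% over the 62 that were above 0 in virgin queens, and 15.1% for all transcripts of at least 2 FPKM. The 64 were also less abundant than that set, and the part of abundance in this spread was not tested.

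The 6 largest falls in virgin queens were those of LOC551938, LOC551263, LOC408398, XM_006561730.1, LOC413575 and XM_006561635.1. LOC551938 (XM_624321.4) was listed at 8.2e-05, 0 and 9.4e-05 FPKM in virgin queens and had 17.6, 11.7 and 13.6 in egg-laying queens. In inhibited queens it had 5.95, 7.28 and 8.65 FPKM and in recovery queens 16.5, 11 and 9.25. Mated queens expressed it whether or not they were laying, and the virgin values were close to 0 (virgin minus mated -3.55, SE 0.18, limma adjusted p = 1.61e-08).

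LOC408398 was at 0.234, 0 and 0.0748 FPKM in virgin queens, 6.80, 5.56 and 4.98 in egg-laying queens, 2.03, 3.19 and 2.77 in inhibited queens and 12, 9.23 and 11.1 in recovery queens. The 4 groups did not overlap, and virgin minus mated was -2.59 (SE 0.15, limma adjusted p = 5.45e-08). The other transcripts of the gene had 3.75 FPKM in virgin queens, and for the gene sum, with 3.86 FPKM in virgin against 11.03, 6.94 and 17.4 in egg-laying, inhibited and recovery queens, the difference was -1.31 (adjusted p = 1.5e-05). XM_006561730.1 was at 2.48, 5.25 and 0 FPKM in virgin queens, 15.3, 14.8 and 33.1 in egg-laying queens, 6.23, 13.3 and 9.996 in inhibited queens and 24.9, 14.6 and 22.4 in recovery queens. Every virgin queen was below every mated queen (-2.57, SE 0.46, limma adjusted p = 0.000416).

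The 6 largest rises in virgin queens were those of LOC550671, LOC724488, LOC551176, LOC100578534, LOC411570 and LOC412301. LOC550671 (XM_006560557.1) had 118, 69.3 and 106 FPKM in virgin queens and 8.13, 7.21 and 7.71 in egg-laying queens. It had 4.84, 4.75 and 4.61 FPKM in inhibited queens and 8.78, 7.56 and 8.42 in recovery queens. The virgin mean was 14.2 times the mated mean, while the fall with caging was from 7.68 to 4.73 FPKM (virgin minus mated 3.64, SE 0.13, limma adjusted p = 1.91e-09).

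LOC551176 had 25.5, 10.9 and 13.9 FPKM in virgin, 2.92, 3.56 and 6.41 in egg-laying, 1.94, 1.77 and 1.97 in inhibited and 3.82, 2.53 and 2.46 in recovery queens (2.12, SE 0.25, limma adjusted p = 1.46e-05). LOC100578534 had 8.35, 13.9 and 14.4 FPKM in virgin, 5.24, 5.64 and 4.08 in egg-laying, 3.48, 3.36 and 2.66 in inhibited and 5.89, 5.97 and 4.07 in recovery queens (1.27, SE 0.18, limma adjusted p = 6.67e-05). In both, every virgin queen was above every mated queen. For the gene sum of LOC100578534 the difference was 0.48 (adjusted p = 0.0319). LOC412301 had 7.87, 7.20 and 6.75 FPKM in virgin, 3.34, 3.43 and 2.34 in egg-laying, 1.92, 1.38 and 1.87 in inhibited and 2.96, 3.34 and 2.81 in recovery queens (1.23, SE 0.14, limma adjusted p = 1.08e-05).

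LOC411570 (XM_006561024.1) had 51.2, 33.9 and 30.4 FPKM in virgin queens and 21.6, 13.5 and 12.7 in egg-laying queens. Inhibited queens had 8.29, 11.2 and 11.2 FPKM and recovery queens 30.2, 18.2 and 20.1. The transcript was higher in virgin queens (1.25, SE 0.20, limma adjusted p = 0.000224), but with the FPKM of all paired transcripts of its gene summed, virgin queens were lower (-0.71, adjusted p = 0.000234).

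The transcripts outside the largest rises and falls whose virgin and mated queens did not overlap were also looked up after their values were seen. LOC411697 was at 22.3, 21.7 and 23.7 FPKM in virgin queens, while no mated queen left the range of 5.77 to 12.6 FPKM (1.15, SE 0.11, limma adjusted p = 3.06e-06). LOC725688 at 10.6 to 14.1, LOC410635 at 6.89 to 9.14 and LOC413766 at 4.72 to 8.71 FPKM in virgin queens were above mated queens as well. The LOC410635 transcript is 2.38% of its gene, however, and the gene sum was the reverse, with 47.0 FPKM in virgin queens against 144, 131 and 145 in egg-laying, inhibited and recovery queens. On the lower side, LOC724552 had 4.88, 3.85 and 1.61 FPKM in virgin queens, against 5.42, 10.9 and 5.46 in inhibited and 11.8 to 15.4 in laying queens (-1.51, SE 0.24, limma adjusted p = 0.00018). LOC410549 at 0 to 0.73 and XM_006560665.1 at 0.962 to 2.17 FPKM in virgin queens were below mated queens in the same way. Together with the transcripts named before, these make up the 10 above and the 9 below.

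**Figure D4:**
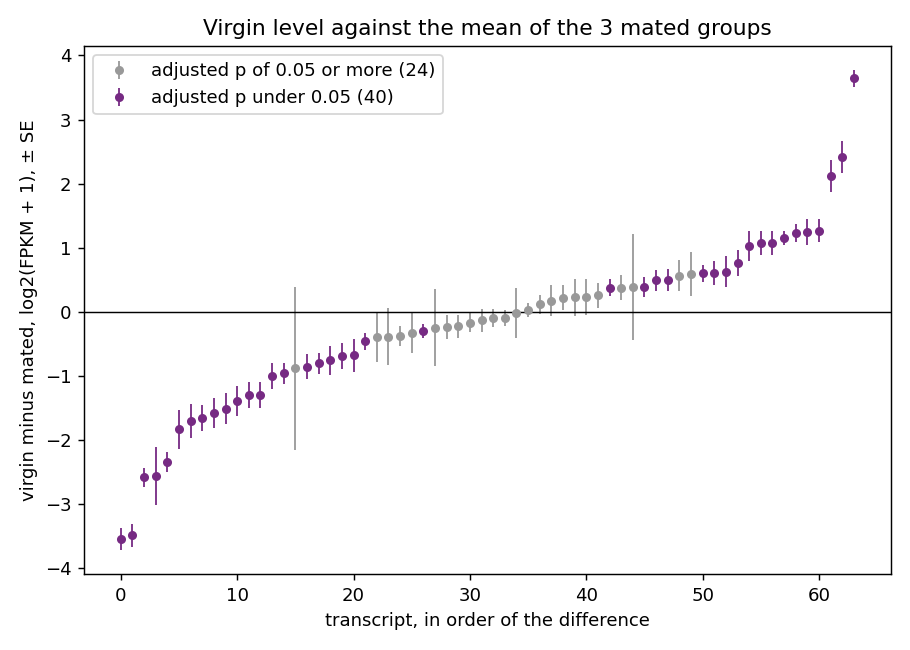
Difference between the virgin mean and the mean of the 3 mated groups for each of the 64 transcripts, on the log2(FPKM + 1) scale, in order of size. Points are limma estimates, bars are ± 1 SE, and purple marks the 40 transcripts with adjusted p under 0.05. The values run from -3.55 for LOC551938 to 3.64 for LOC550671, with 35 below 0 and 29 above.

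LOC724711 (XM_006572392.1) was named after its values were seen, because it was uneven among queens. Virgin queen 1 had 146 FPKM and the other virgin queens 0.113 each. Egg-laying queens had 25.2, 10.9 and 24.7 FPKM, inhibited queens 8.48, 9.55 and 0, and recovery queens 10.9, 9.99 and 13.3. The 3 virgin queens spanned a wider range than the 4 group means.

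The comparison of recovery with egg-laying queens asks whether released queens had the level of queens that were never caged. Of the 64 transcripts, 0 passed the threshold by limma, where 0.0502% of all transcripts did. At an unadjusted p under 0.05 there were 11, against 2063 of all 17924 transcripts. The recovery mean was above the egg-laying mean for 42 and below it for 22, with a median ratio of 1.07 and a range of 0.557 to 4.16. The choice of the transcripts bounds both means from below. A missed threshold with 3 queens per group does not show that the levels were equal.

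Every recovery queen was above every egg-laying queen for 10 transcripts (9.28% of all transcripts with a mated mean of at least 2 were), namely LOC410620, LOC727486, LOC724488, LOC411697, LOC551513, LOC408398, LOC410944, CPR12, LOC410947 and LOC724495. The reverse held for 2, LOC726192 and XM_006570280.1, where 14.4% of all transcripts were. LOC724488 had the lowest adjusted p, with a recovery minus egg-laying difference of 1.83 (SE 0.31, limma adjusted p = 0.0806). For LOC410620 the difference was 1.38 (SE 0.30, adjusted p = 0.159). For LOC551513, with 4.43, 5.75 and 7.88 FPKM in egg-laying and 14.9, 15.9 and 13.7 in recovery queens, it was 1.20 (SE 0.36, adjusted p = 0.262). That transcript was 8.96% of its gene, however, and the mean of the gene sum went the other way, with 94.6 FPKM in egg-laying and 85.2 in recovery queens. LOC409141, the most abundant, had a difference of 0.09 (SE 0.13, adjusted p = 0.836).

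The count of 0 depended on the weight of single libraries. Without recovery queen 1, the lowest of her group for both genes, LOC724488 (2.27, adjusted p = 0.00227) and LOC410620 (1.76, adjusted p = 0.0254) passed. With array weights, which let noisy libraries count less, CPR12 (0.83, adjusted p = 0.0451) passed with them, with LOC724488 at 1.94 (adjusted p = 0.0205) and LOC410620 at 1.45 (adjusted p = 0.0409).

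Because FPKM is given per transcript, a fall of 1 transcript need not be a fall of its gene. Of the 47 transcripts paired with a gene, 18 were the only listed transcript of the gene and 29 had others beside them. When the FPKM of all paired transcripts of the gene were summed, 8 of the 29 still met the rule and 21 did not. Their median ratio of laying to inhibited queens was 1.26 after summing. The remaining transcripts of the gene, in the 24 cases where their inhibited mean was at least 1 FPKM, had a median ratio of 1.05, with a range of 0.367 to 2.24, and were above 1 in 15. The ratios of 2.24 and 1.76 belong to the pair of LOC413314 transcripts, each counted as the remaining transcript of the other. Both were chosen by the rule, so these ratios are no separate observation. Outside that pair the highest ratio was 1.39, for LOC408398. The pairing covers 58.1% of the transcripts in the table, so some transcripts of these genes may be missing from the sums.

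Where the chosen transcript made up nearly all of the gene, the gene sum largely repeats its values. LOC551263 took 100% of its gene's FPKM in mated queens, LOC410013 took 97.1% and LOC410947 took 93.4%, with ratios of the gene sums of 6.69, 12.7 and 3.54. LOC551938 took 91.5% and LOC412301 took 87.9%, with smaller ratios of 1.89 and 1.66. The pair of LOC413314 transcripts gave a gene sum of 36.6 FPKM in egg-laying, 20.7 in inhibited and 43.9 in recovery queens. At the other end, the LOC411969 transcript was 4.69% of its gene, whose sum was 94.4, 71.3 and 95.7 FPKM in the same groups. LOC410549 took 2.11%, and its gene sum was 121 FPKM in egg-laying, 121 in inhibited and 107 in recovery queens.

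In LOC725688 and LOC550998 the transcripts of a gene moved in opposite directions. The chosen transcript of LOC725688 (XM_006559011.1) had means of 7.89, 4.98 and 7.77 FPKM in egg-laying, inhibited and recovery queens, while the other transcript had 2.12, 5.5 and 1.91. Their sum was 10.02, 10.5 and 9.68 FPKM, with no fall in caged queens. The chosen transcript of LOC550998 had 4.14, 1.47 and 5.08 FPKM, against 0.659, 2.25 and 1.27 for the other. Transcripts of 1 gene share reads, so their FPKM values may not be independent of each other.

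**Figure D5:**
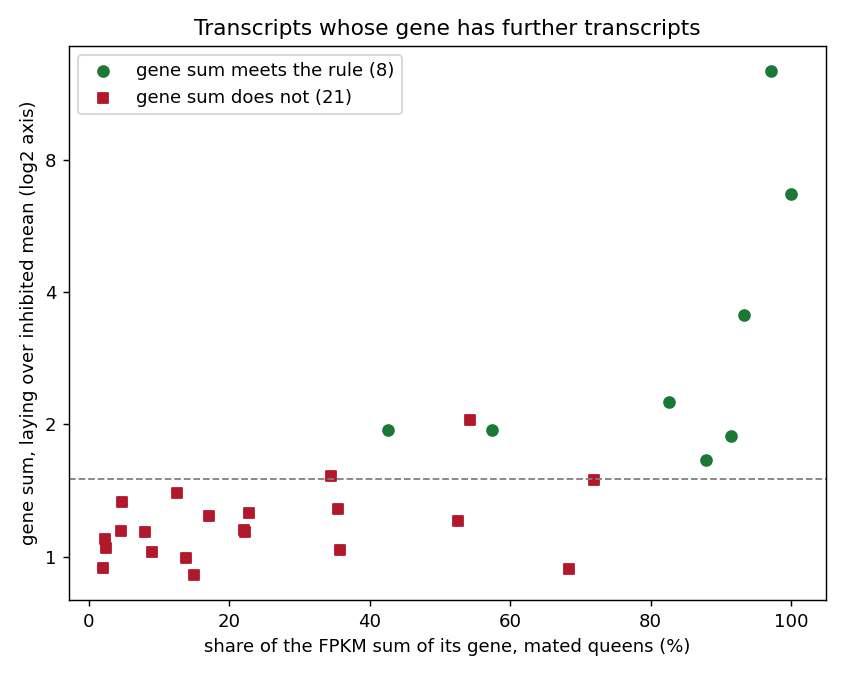
The 29 transcripts whose gene has further transcripts, plotted by their share of the gene's FPKM sum in mated queens (x axis, percent) and by the ratio of laying to inhibited means of that sum (y axis, log2 scale). Green circles are the 8 whose gene sum meets the rule, red squares are the 21 whose sum does not, and the dashed line marks 1.5. The green circles lie at shares of 42.6% or more, and the 4 transcripts with the lowest shares have ratios of the gene sum from 0.943 to 1.14.

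The genes were not next to each other. Of the 46 genes, 42 could be placed by gene order in RefSeq on Amel_HAv3.1, a newer assembly than the one used for the files, and 0 pairs were adjacent. Only 3 pairs had at most 5 protein-coding genes between them. LOC724552 and LOC551938 on linkage group 16 had 2 between them, LOC551176 and LOC409141 on linkage group 5 had 3, and LOC410944 and LOC410947 on linkage group 3 had 5.

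Lists of cuticle, hormone and cell type genes, matched by symbol, were set beside the 64. Of 23 cuticle genes, which build the exoskeleton, 18 could be tested. In laying minus inhibited queens CPR12 alone passed, a difference that the choice of transcripts had favoured. For recovery minus inhibited queens, 2 were higher, CPR12 and CPR4, another RR protein (28.9 FPKM in inhibited and 65.8 in recovery queens, limma adjusted p = 0.0211). CPR4 was at 28.8 FPKM in egg-laying queens, close to the inhibited level. The summed cuticle FPKM was 138 to 172 in egg-laying, 164 to 216 in inhibited, 234 to 318 in recovery and 148 to 191 in virgin queens. In virgin minus mated queens, 7 of the 18 were higher and 4 lower, with a median log2 difference of -0.04. Over all transcripts 30.9% were higher and 30.1% lower, and the virgin counts of this and the following lists are to be read beside these shares.

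Of 10 hormone genes, 0 passed in laying minus inhibited queens by limma, with 0 at an unadjusted p under 0.05. Ecr, the ecdysone receptor, had means of 31.9, 32.0 and 32.1 FPKM in egg-laying, inhibited and recovery queens, and Kr-h1, a transcription factor induced by juvenile hormone, had 88.7, 94.7 and 93.1. In virgin minus mated queens 2 were higher and 4 lower, among them Ecr at 4.74 FPKM in virgin queens (-2.58, SE 0.18). In recovery minus egg-laying queens 0 passed by limma, and 0 were at an unadjusted p under 0.05. For recovery minus inhibited queens 0 passed as well, with 2 at an unadjusted p under 0.05 and 6 of the 10 differences above 0. The largest was that of Usp (0.40, SE 0.18, limma adjusted p = 0.339), with 9.99 FPKM in inhibited and 13.4 in recovery queens. The study reports Usp as raised in that comparison.

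The germline markers expected of an ovary were present in all libraries. The sum of vas, nanos and aub, genes of germ cells, was 394 to 473 FPKM in egg-laying, 404 to 474 in inhibited, 416 to 474 in recovery and 174 to 283 in virgin queens. Within the sum, vas had means of 306, 257 and 285 FPKM in egg-laying, inhibited and recovery queens, while nanos had 124, 168 and 154. In laying minus inhibited queens 0 of the 3 passed by limma (0 at an unadjusted p under 0.05), and in virgin minus mated queens 2 were lower. For inhibited minus egg-laying queens 0 passed, and 1 was at an unadjusted p under 0.05.

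Muscle and fat body markers differed between groups too. The summed level of 7 muscle genes, all troponins, was 231 to 414 FPKM in virgin queens and 72.0 to 109.6 in mated queens, and 6 were higher and 1 lower in virgin queens. Mlc2, a myosin light chain gene, was also on the list but had no match by symbol, so it is not in these counts. The study reports it as lower in egg-laying than in virgin queens, and lower in inhibited than in egg-laying queens. In laying minus inhibited queens 0 of the 7 passed by limma (0 at an unadjusted p under 0.05). The 6 fat body genes summed to 110 to 153 FPKM in inhibited queens, above the 83.9 to 98.8 of egg-laying and the 71.3 to 101 of recovery queens, and to 128 to 450 in virgin queens. Vg, which encodes the yolk precursor vitellogenin, had means of 6.04, 33.1, 6.04 and 171 FPKM in egg-laying, inhibited, recovery and virgin queens. In laying minus inhibited queens 0 of the 6 passed by limma, and 2 were at an unadjusted p under 0.05. In virgin queens 4 were higher and 1 lower.

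The summed level of 6 haemocyte and immune genes ran from 12.6 to 20.2 FPKM in egg-laying, 12.6 to 57.4 in inhibited, 9.69 to 18.8 in recovery and 22.2 to 126 in virgin queens, and 3 were higher in virgin queens. The neuron markers Syt1 and brp summed to 2.85 to 4.64 FPKM in mated and 6.39 to 11 in virgin queens, and 1 was higher in virgin queens. Neither list had a call in laying minus inhibited queens by limma, or a gene at an unadjusted p under 0.05. The part of muscle, fat body, immune and neuron RNA in the differences between virgin and mated queens was not tested, nor was that of fat body RNA in those between inhibited and laying queens.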

How the data were processed

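Total RNA from the ovaries of 12 queens was depleted of rRNA, and strand-specific libraries were sequenced by the authors. They aligned reads to Amel_4.5 with TopHat (TopHat2 2.0.9 in the submitters' processing notes) and deposited FPKM values per transcript. Their methods name Cufflinks for assembling and annotating transcripts; the tool that gave the FPKM values is not given in the sources used here. The study gives the total of raw reads over all libraries, but the fragment count behind a value is unknown. Each replicate is a separate queen. The miRNA table was not used.

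The 64 transcripts and the gene lists were chosen with earlier results of these data known. The rule leaves out 4 transcripts by name. Differences were tested on log2(FPKM + 1), a pseudocount of 1, with the lmFit and trended eBayes functions of limma 3.58.1 under R 4.3.3, in 1 fit of all 12 libraries with a mean per group, after transcripts averaging under 0.1 FPKM were dropped. Fold changes on this scale understate those of low transcripts. P-values were two-sided and adjusted by the Benjamini-Hochberg method over the 17924 transcripts. All 64 passed the filter. Python 3.11.15 with pandas 2.3.3 was used for the rest. In data simulated for 17787 transcripts, 194 of 200 changes of 2 on the log2 scale were recovered, with 13 other calls. The changes were placed in virgin minus mated queens, in transcripts with a mean log2(FPKM + 1) above 2. Smaller changes, rarer transcripts and the other comparisons were not simulated.

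Transcripts were described by name if they were among the 10 with the highest mated mean, the 10 with the largest ratio, the 6 largest called rises or falls in virgin queens, at the fold limit, on a gene list, or shared a gene. Genes were paired by accession from RefSeq (Amel_HAv3.1, names and gene order only) and the study's tables, for 12543 transcripts. Lists were matched by symbol alone, since descriptions and promoter sequences were not used here, so lists of eggshell, sugar, solute carrier, lipid, protease and detoxification genes and promoter motifs were not analysed. Alternatives were other pseudocounts, filters and scalings, sums per gene, array weights, a replicate block and leaving out each queen.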

Additional observations from a re-analysis of the deposited data

How the results depend on the processing

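The number of transcripts that met the rule was 129 with a fold limit of 1.3, 17 with a limit of 2 and 34 with a mean of at least 5 FPKM. Without 1 mated queen it ran from 66 to 128, and it was 108, 128 and 108 without inhibited queens 1, 2 and 3. Of the 64, 63 were kept after scaling by the median of ratios, 60 after scaling to the same sum, 43 with FPKM summed per gene and 52 to 62 without 1 queen. The counts higher and lower in virgin queens stayed within 1.5 times in the alternatives run, between 12 and 26 and between 17 and 31.

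For recovery minus egg-laying queens, 0 of the 64 became 3 with array weights and 0 to 2 without 1 queen, and the 9 calls over all transcripts became 18 with a pseudocount of 0.01, 15 with no filter, 14 with a mean of at least 1 FPKM, 17 with the same sum, 17 with quantile normalization, 108 with array weights and 2 to 30 without 1 queen. For laying minus inhibited queens, with alternatives chosen after seeing the data, the 16 calls became 10 with no filter, 25 with array weights and 5 to 20 without 1 queen, the lowest without inhibited queen 1. Over all transcripts, the 48 calls became 36 with no filter, 224 with array weights and 13 to 110 without 1 queen. The rule used this difference, so nothing is read from the counts. Deviations from the group means correlated little between queens of the same replicate number (r -0.10 to 0.15, 3 of 18 above 0.1). Between queens of other numbers r ran from -0.17 to 0.14. These correlations pool all transcripts, so they cannot exclude a pairing that touches some of them. With a replicate block, the 9 recovery minus egg-laying calls over all transcripts became 5. The 16 laying minus inhibited calls of the 64 became 9, where the 48 calls over all transcripts became 37. The causes were not tested.

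Of the 22 named transcripts called in virgin minus mated queens, 15 kept call and direction in each alternative run. Over 667 alternatives of 29 named transcripts, 594 kept direction and side of the threshold, 44 lost and 4 gained a call, and 25 changed sign. Scaling to the same sum turned LOC409141 (0.17), LOC412348 (0.24), XM_006571264.1 (0.28), XM_006569998.1 (0.066) and CPR12 (0.28). Quantile normalization turned LOC409141 (0.15) and LOC412348 (0.0046). Sums per gene turned LOC727486 (-0.48), XM_006560925.1 of LOC413314 (-0.24), LOC411969 (-1.11) and LOC411570 (-0.71). XM_006571264.1 also turned with a pseudocount of 0.1 (0.047) or 0.01 (0.069), the median of ratios (0.010) and array weights (0.15), and ran from -0.34 to 0.32 without 1 queen. Without 1 queen, LOC724779 ran from -0.0080 to 0.33, LOC412348 from -0.37 to 0.012, XM_006560925.1 from -0.018 to 0.066, LOC411969 from -0.28 to 1.27 and XM_006569998.1 from -0.90 to 0.71. The unknown fragment counts limit the low transcripts most.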
